A study of Mus musculus with 3 samples.

Results

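Dividing T cells of the inflamed sciatic nerve were selected on raw unique molecular identifier (UMI) counts, each UMI standing for 1 captured transcript. A member had at least 1 UMI over the T cell receptor complex genes Cd3d, Cd3e and Cd3g and at least 2 UMIs over Mki67 and Top2a. It had no UMI of the B cell gene Cd79a and at most 1 UMI over the macrophage genes C1qa, C1qb and C1qc. Of 13637 cells, 8153 passed the T cell part of this gate and 394 passed all of it. The 7132 T cells with no Mki67 or Top2a UMI are called other T cells below, and the T cells with exactly 1 such UMI (344, 225 and 58 in libraries 1, 2 and 3) were kept out of the comparisons. Because the gate chose the members by Mki67 and Top2a, the levels of these and of other cell cycle genes are a description of what was selected, with no test.

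CD45+ cells, the leukocytes, were sorted from the sciatic nerves of neuropathic NOD.AireGW/+ mice and profiled with 10x Genomics 5′ single-cell RNA-Seq. These mice are on the autoimmune-prone NOD background and carry 1 copy of a dominant partial loss-of-function allele of Aire, the factor that displays tissue antigens in the thymus, and they develop spontaneous autoimmune neuropathy. Per the study's methods the mice were female. Their age is not given in the labels. There were 3 libraries in 1 group: libraries 1 and 2 each came from 1 mouse and library 3 from 2 pooled mice, 4 mice in all. All were neuropathic, so no comparison with a healthy nerve was possible. The libraries held 3926, 8311 and 1533 cells, with medians of 3985.5, 4659 and 1726 UMIs per cell, so library 3 was both the smallest and the shallowest. Pairs of libraries shared 7 to 36 cell barcodes, and 2 of the shared barcodes belonged to a member in 1 library.

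Cycling cells copy their DNA in S phase and part it in mitosis. The S phase genes (Mcm helicase subunits, Pcna, Rrm2) are switched on by E2F factors when the retinoblastoma brake is released. The G2/M genes (Ccnb1, Cdc20, Ube2c, Birc5) come on later through the MuvB complex, which binds promoters at the cell cycle homology region, often beside CCAAT boxes bound by NF-Y. Resting T cells are held out of the cycle by quiescence genes such as Klf2, Btg1 and Cdkn1b and live on interleukin 7, whereas T cells that meet their antigen divide and build up nucleotides, ribosomes and glycolytic enzymes.

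The promoters of 5 genes are shown as examples that hold the motifs searched, and were picked for holding them: both gate genes, the G2/M genes Ube2c and Cdc20, and the S phase helicase gene Mcm6. Each run covers 250 bases before to 50 after the gene's start, 5′ to 3′ on the gene's strand, from RefSeq on build GRCm38.p6. Capitals mark matches, on either strand, to the core of the cell cycle homology region (TTTGAA), the CCAAT box (CCAAT) and the E2F letters searched (TTTCCCGC, TTTGGCGC, TTTCGCGC or TTTGCCGC), and matches may overlap. The windows lie at chr7:135716330-135716629, minus strand (Mki67), chr11:99024140-99024439, minus strand (Top2a), chr2:164769679-164769978, plus strand (Ube2c), chr4:118437294-118437593, minus strand (Cdc20) and chr1:128359656-128359955, minus strand (Mcm6).
Mki67: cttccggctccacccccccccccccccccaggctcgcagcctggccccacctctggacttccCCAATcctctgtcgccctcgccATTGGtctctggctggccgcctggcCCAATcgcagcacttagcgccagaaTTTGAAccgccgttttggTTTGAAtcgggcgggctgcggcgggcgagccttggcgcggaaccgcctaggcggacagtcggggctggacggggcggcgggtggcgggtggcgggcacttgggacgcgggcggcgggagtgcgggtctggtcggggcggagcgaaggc
Top2a: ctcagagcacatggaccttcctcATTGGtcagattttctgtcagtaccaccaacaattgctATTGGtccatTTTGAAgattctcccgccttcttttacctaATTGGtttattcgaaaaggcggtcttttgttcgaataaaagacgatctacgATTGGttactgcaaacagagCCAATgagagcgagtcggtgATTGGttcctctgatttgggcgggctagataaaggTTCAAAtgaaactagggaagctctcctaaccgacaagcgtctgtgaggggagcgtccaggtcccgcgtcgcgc
Ube2c: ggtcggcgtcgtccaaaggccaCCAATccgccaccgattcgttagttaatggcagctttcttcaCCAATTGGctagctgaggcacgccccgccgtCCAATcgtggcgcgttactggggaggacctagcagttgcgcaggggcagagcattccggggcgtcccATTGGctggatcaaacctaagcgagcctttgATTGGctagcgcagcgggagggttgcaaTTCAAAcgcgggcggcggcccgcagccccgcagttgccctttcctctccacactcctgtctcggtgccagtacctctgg
Cdc20: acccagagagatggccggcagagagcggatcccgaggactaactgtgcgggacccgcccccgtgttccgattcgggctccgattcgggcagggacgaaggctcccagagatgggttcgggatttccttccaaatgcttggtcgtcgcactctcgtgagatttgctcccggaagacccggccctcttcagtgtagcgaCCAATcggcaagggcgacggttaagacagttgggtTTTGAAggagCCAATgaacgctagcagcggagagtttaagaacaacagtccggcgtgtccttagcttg
Mcm6: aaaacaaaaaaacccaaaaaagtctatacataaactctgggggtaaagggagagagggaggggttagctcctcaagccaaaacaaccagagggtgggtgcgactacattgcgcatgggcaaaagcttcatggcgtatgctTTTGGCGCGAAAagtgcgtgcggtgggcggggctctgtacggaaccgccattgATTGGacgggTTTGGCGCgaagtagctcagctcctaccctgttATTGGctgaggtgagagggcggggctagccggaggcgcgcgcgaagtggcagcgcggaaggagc
The Mki67 window held 2 TTTGAA matches and 3 CCAAT matches, and the Top2a window held 2 and 6. The Ube2c window held 1 and 6 and the Cdc20 window 1 and 2. Mcm6 had no TTTGAA match, 2 CCAAT matches and 3 E2F matches. TTTGAA stood in 18.1% of all 27025 promoter windows, in 43 of the 68 G2/M genes with a window (63.2%) and in 6 of 41 S phase genes (14.6%). TTTGAA together with CCAAT stood in 7.12% of all windows, 35 of 68 G2/M genes (51.5%) and 5 of 41 S phase genes (12.2%). The E2F letters went the other way, at 2.32% of all windows, 8 of 68 G2/M genes (11.8%) and 14 of 41 S phase genes (34.1%). CCAAT alone was in 37.9% of all windows, 50 of 68 G2/M genes (73.5%) and 26 of 41 S phase genes (63.4%). Not every gene named above held them: Ccnb1 had no TTTGAA match and 2 CCAAT matches, Rrm2 had no E2F match and 1 CCAAT match, and Birc5 had no match to any of these letters. None of the 46 replication histone genes matched the promoter table. A match is a run of letters, not a measured binding site.

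Members made up 6.0% of T cells in library 1 (179 of 2984, exact binomial 95% interval 5.17 to 6.91), 4.93% in library 2 (193 of 3916, 4.27 to 5.65) and 1.76% in library 3 (22 of 1253, 1.10 to 2.65). The mean was 4.23% ± 2.21 (SD, n = 3 libraries). All intervals here cover counting error only. The share depends on depth: the same gate applied after each cell was thinned to 1100 UMIs gave 1.26%. The share of B cells passing the same Mki67 and Top2a cut was 2.25%, 6.67% and 0 (5 of 222, 24 of 360 and 0 of 70), and for macrophages it was 1.43% in library 2 (26 of 1812).

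Members held more UMIs than other T cells. Their median was 8413, 12340 and 3481.5 UMIs per cell in libraries 1, 2 and 3, against 3503, 2625.5 and 1712 in other T cells. The gate itself favors deep cells, as it asks for raw UMIs in members and for none in other T cells. T cells with exactly 1 gate UMI had medians of 4649.5, 4365 and 2137 UMIs. How much of the difference comes from the gate was not tested. The median mitochondrial share was 1.61%, 0.796% and 0.877% in members, against 1.54%, 0.920% and 0.845%. Cells of over 3000 detected genes were 41.9%, 59.1% and 0 of members and 7.56%, 3.43% and 0.341% of other T cells. At least 2 UMIs over 14 marker genes of B, plasma, myeloid and dendritic cells were found in 10.6%, 32.1% and 0 of members and in 9.43%, 21.3% and 0.938% of other T cells. No doublet caller was run, and both measures were used below as alternatives.

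The 3 marker genes outside the gate bore out the label in library 2 and in the small library 3, and only in part in library 1. Stmn1, which destabilizes microtubules, was detected in 50.3%, 90.2% and 81.8% of members against 9.31%, 6.17% and 8.44% of other T cells. Birc5 (survivin, of the chromosomal passenger complex) was detected in 32.4%, 73.6% and 63.6% of members against 1.38%, 1.09% and 1.36%. Ube2c, the ubiquitin-conjugating partner of the anaphase-promoting complex, was detected in 22.3%, 61.1% and 50% against 2.60%, 2.14% and 1.71%. Library 1 was thus the lowest of the 3 for each marker. In B cells, median depth 3991.5 UMIs in library 1, Stmn1 was detected in 7.66%, 6.11% and 5.71% of cells and Birc5 in 2.70%, 5.0% and 0. Birc5 was thus more frequent in B cells than in other T cells in libraries 1 and 2, and 24 of the 360 B cells of library 2 passed the Mki67 and Top2a cut themselves.

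Members at the edge of the gate were a larger share of library 1 than of library 2. Exactly 2 gate UMIs were held by 76 of 179 members in library 1, 52 of 193 in library 2 and 11 of 22 in library 3, whereas 10 or more were held by 38, 61 and 2. Among members with exactly 2 gate UMIs, Stmn1 was detected in 25.0%, 69.2% and 63.6%, and just outside the gate, at exactly 1 UMI, in 15.4%, 20.9% and 27.6%. Ube2c stood at 13.8, 390 and 234 counts per 1000000 UMIs (CPM) in the first of these groups and at 8.2, 20.5 and 85.8 CPM in the second. The library 1 members at the gate's edge therefore lay near the cells outside it, and those of library 2 did not.

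**Figure D1:**
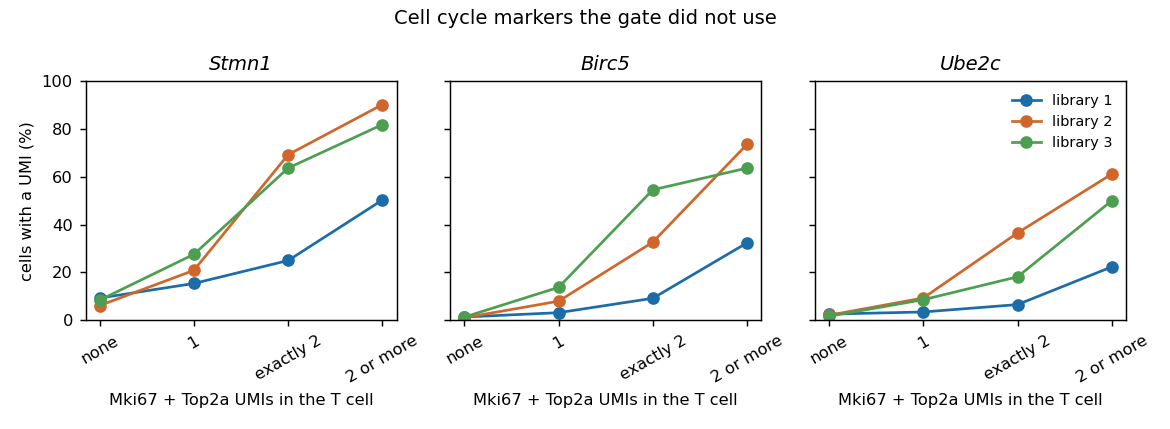
Percent of cells with at least 1 UMI of Stmn1, Birc5 and Ube2c (y axis) in T cells with 0, exactly 1, exactly 2 and 2 or more UMIs over Mki67 and Top2a, per library. Counts were not thinned, and members were deeper. The group with 2 or more includes the cells with exactly 2; members of libraries 2 and 3 stand well above the T cells outside the gate, and library 1 members with exactly 2 UMIs stand near them.

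The cell cycle genes that the gate did not use showed both an S phase and a mitotic part in the members. The S phase list (53 genes) took 0.461%, 0.472% and 0.699% of members' UMIs against 0.129%, 0.108% and 0.123% in other T cells. The G2/M list (85 genes) took 1.20%, 1.82% and 2.19% against 0.310%, 0.304% and 0.391%. The replication histones (46 genes) took 0.0963%, 0.228% and 0.685% against 0.0210%, 0.0211% and 0.0377%. All 3 lists were highest in library 3 and lowest in library 1 among members.

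Single genes followed the same order of groups. Rrm2, the regulated subunit of the enzyme that makes deoxyribonucleotides, was at 217, 294 and 589.9 CPM in members and at 7.4, 6.1 and 15.1 CPM in other T cells. Mcm6 was at 283, 205 and 250 CPM against 121, 71.4 and 107 CPM, and Pcna, the polymerase clamp, at 182, 217 and 411 against 58.6, 72.0 and 80.9 CPM. Both were well above 0 in other T cells, in contrast to the mitotic genes that follow. Cdk1, the mitotic kinase, was at 85.9, 198 and 161 CPM in members and 3.7, 2.7 and 3.7 CPM in other T cells. Its partner cyclin Ccnb1 was at 47.8, 85.8 and 53.6 against 2.6, 2.5 and 1.2 CPM, and Cdc20, which activates the anaphase-promoting complex, at 55.8, 131 and 89.4 against 5.1, 4.0 and 8.2 CPM. The groups did not overlap for any of these genes in these 3 libraries, and the share of all genes for which this holds is not given here.

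At 1 common depth most members carried more UMIs of the G2/M list than of the S phase list, which by itself gives no phase: the G2/M list is longer and also took more UMIs in other T cells (0.310%, 0.304% and 0.391% against 0.129%, 0.108% and 0.123%). Thinned to 1100 UMIs, with Mki67 and Top2a left out of the lists, 169, 192 and 19 members were deep enough and 10, 1 and 3 were left out. More S than G2/M UMIs were found in 34 of 169 (20.1%, exact 95% interval 14.4 to 27.0), 17 of 192 (8.85%, 5.24 to 13.8) and 2 of 19 (10.5%, 1.30 to 33.1). The median member had 4, 4 and 9 S phase UMIs and 8, 18.5 and 23 G2/M UMIs, so the libraries differed more in the G2/M part. The S-rich share came to 5.33% on average over libraries without thinning, against 13.2% with it. No UMI of 20 mitotic genes was found in 55.6%, 29.7% and 31.6% of members, which is most of the members in library 1.

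Cells outside the gate lay far below members on both measures, with B cells given beside them. At the same depth, at least 1 mitotic UMI was present in 44.4%, 70.3% and 68.4% of members, 11.6%, 13.6% and 22% of T cells with 1 gate UMI, 13.1%, 10.3% and 15.8% of other T cells and 9.66%, 11.2% and 11.1% of B cells. At least 5 S phase UMIs were present in 45.0%, 49.5% and 73.7% of members, 6.75%, 7.73% and 14.0% of the T cells with 1 gate UMI, and 2.56%, 1.45% and 2.07% of other T cells. The B cell shares were 2.42%, 1.12% and 0, near those of other T cells in libraries 1 and 2. T cells with 1 gate UMI lay above B cells for S phase UMIs in all 3 libraries, and for mitotic UMIs most clearly in library 3.

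**Figure D2:**
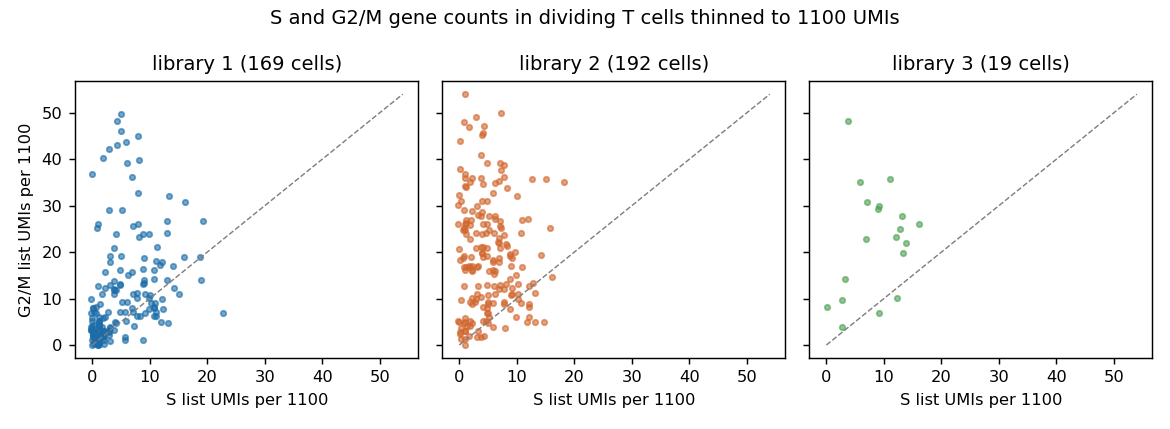
S phase UMIs (x axis) against G2/M UMIs (y axis) per dividing T cell after thinning to 1100 UMIs, 169, 192 and 19 cells in libraries 1, 2 and 3, with points slightly jittered and the dashed line at equality. Most points lie above the line in each library, as the longer G2/M list alone would favor, and library 1 has the largest share below it (20.1%).

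The members divided over CD8, conventional CD4 and Foxp3 cells with CD8 cells in front in libraries 1 and 2. A CD8 cell had a UMI of Cd8a or Cd8b1 and none of Cd4 or Foxp3. A conventional CD4 cell had Cd4 without Foxp3 or CD8 genes, and a Foxp3 cell (Foxp3 is the regulatory T cell factor) had Foxp3 without CD8 genes. A regulatory T cell with Cd4 but no captured Foxp3 UMI therefore counted as conventional CD4. CD8 cells were 81 of 179 members in library 1 (45.3%, 37.8 to 52.8), 62 of 193 in library 2 (32.1%, 25.6 to 39.2) and 5 of 22 in library 3 (22.7%, 7.82 to 45.4). Conventional CD4 cells were 29 (16.2%, 11.1 to 22.4), 34 (17.6%, 12.5 to 23.7) and 6 (27.3%, 10.7 to 50.2). Foxp3 cells were 17 (9.50%, 5.63 to 14.8), 41 (21.2%, 15.7 to 27.7) and 2 (9.09%, 1.12 to 29.2). In all, 148 members were CD8, 69 conventional CD4 and 60 Foxp3.

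The remaining members, 62 mixed and 55 unassigned, fell outside these classes. Mixed cells, with CD8 UMIs beside Cd4 or Foxp3 UMIs, were 36, 26 and 0 members (20.1%, 13.5% and 0). They were the deepest members, with medians of 13138.5 and 17589.5 UMIs in libraries 1 and 2. Unassigned cells, with none of the class genes, were 16, 30 and 9 members (8.94%, 15.5% and 40.9%). Trdc, the constant gene of the T cell receptor delta chain, was detected in 2 of 16, 14 of 30 and 1 of 9 of them (12.5%, 46.7% and 11.1%), against 20.9%, 14.9% and 6.41% of unassigned other T cells. The unassigned members were deeper, with medians of 6872, 15179 and 2091 UMIs against 2999, 2240 and 1525. The Trdc shares were not compared at 1 depth.

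Members and other T cells of a library come from the same mice and are best compared within it. CD8 cells were a larger share of members in each library, at 45.3%, 32.1% and 22.7% against 31.1%, 23.9% and 20.5% of other T cells. Unassigned cells were a smaller share in each, at 8.94%, 15.5% and 40.9% against 21.8%, 37.4% and 54.6%. Conventional CD4 and Foxp3 cells had no common direction. These shares move with depth, which was higher in members, and the differences were not tested: over 3 libraries an exact paired permutation has a smallest P of 0.25. As means over libraries, CD8 cells were 33.4% ± 11.3 (SD, n = 3) of members and 25.2% ± 5.38 of other T cells, conventional CD4 cells 20.4% ± 6.03 and 19.2% ± 3.82, and Foxp3 cells 13.3% ± 6.90 and 12.0% ± 2.57. Within the 3 classes alone the CD8 share was higher in members in libraries 1 and 2 and lower in library 3, and CD8 cells were 49.2% ± 13.1 of members and 44.7% ± 3.27 of other T cells, and Foxp3 cells 19.6% ± 9.03 and 21.2% ± 1.39. The spread over libraries was wider in members than in other T cells for each class. Gates applied after thinning left conventional CD4 cells at 11.5% and Foxp3 cells at 3.33% of the members that remained, and with 4 or more gate UMIs conventional CD4 cells were 12.6%.

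**Figure D3:**
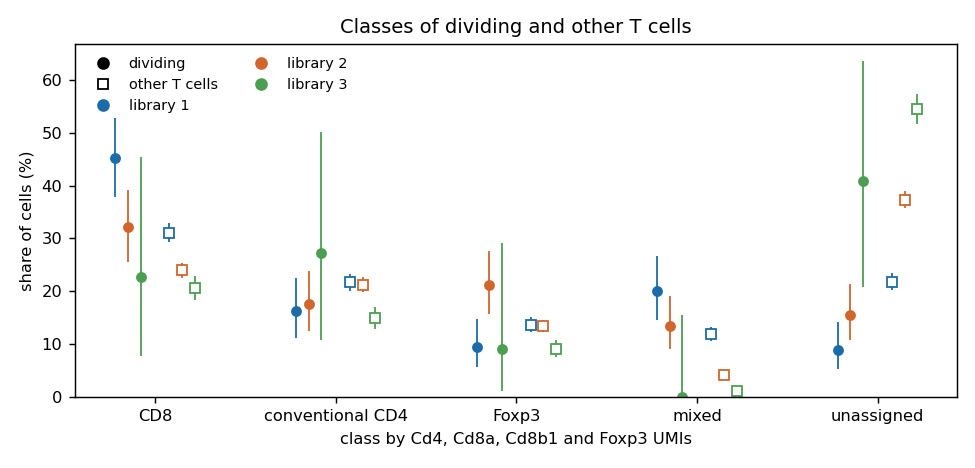
Percent of cells in each class (y axis), for members (filled circles) and other T cells (open squares), in libraries 1, 2 and 3, with exact binomial 95% intervals as bars. CD8 cells lead the members in libraries 1 and 2 (45.3% and 32.1%), and the intervals of library 3 span most of the range.

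The question of which class divided most was put the other way round as the share of each class inside the gate. Without thinning the gate held 8.25%, 6.37% and 1.92% of CD8 cells, 4.62%, 4.14% and 3.21% of conventional CD4 cells and 4.33%, 7.61% and 1.79% of Foxp3 cells. A different class led in each library. Cells thinned to 1100 UMIs gave 28 of 767, 10 of 800 and 3 of 178 CD8 cells (3.65%, 1.25% and 1.69%). They gave 7 of 379, 7 of 476 and 0 of 94 conventional CD4 cells (1.85%, 1.47% and 0) and 5 of 236, 0 of 302 and 0 of 60 Foxp3 cells (2.12%, 0 and 0). None of 542 thinned B cells passed the same cut.

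The thinned shares were 2.20% ± 1.28, 1.11% ± 0.976 and 0.706% ± 1.22 (SD, n = 3) for CD8, conventional CD4 and Foxp3 cells. An exact permutation of the class labels within libraries gave P = 0.333 over 216 arrangements, where the smallest possible P was 0.0278. The classes were therefore not told apart at this depth. With the looser cut of 1 UMI, CD8 cells led in all 3 libraries, at 10.6%, 6.0% and 5.06%, against 6.60%, 4.83% and 1.06% of conventional CD4 cells and 4.66%, 2.65% and 0 of Foxp3 cells, and the same exact permutation test gave P = 0.0278, the smallest it can give. The order of the classes depended on the setting. At 2000 UMIs Foxp3 cells had the highest mean (2.50%, against 2.34% of CD8 and 1.80% of conventional CD4 cells, exact permutation P = 0.833). With classes taken from unthinned counts Foxp3 cells (1.49%) stood above conventional CD4 cells (1.25%) and below CD8 cells (1.96%), with exact permutation P = 0.611. Without thinning the exact permutation test gave P = 0.889.

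The classes were not told apart by phase within a library. In library 1 more S than G2/M UMIs were found in 16 of 77 CD8 cells (20.8%), 7 of 26 conventional CD4 cells (26.9%) and 2 of 15 Foxp3 cells (13.3%). In library 2 the counts were 4 of 62 (6.45%), 1 of 34 (2.94%) and 4 of 41 (9.76%). The exact intervals overlapped between classes in both libraries.

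Dividing CD8 cells of library 1 were dominated by 1 T cell receptor beta chain V gene. Trbv19 (chr6:41178375-41179048, plus strand, GRCm38) was detected in 65 of the 81 (80.2%), at 1161 CPM, against 699.7 CPM in other CD8 cells. In library 1 it was at 197 CPM in dividing conventional CD4 cells and 104 CPM in dividing Foxp3 cells. B cells, which do not rearrange this locus productively, gave a UMI in 17 of 222 (7.66%, 12.8 CPM) in library 1 and in 0 of 360 and 0 of 70 in libraries 2 and 3.

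Among dividing CD8 cells of library 1 with any Trbv UMI, Trbv19 was the leading V gene in 62 of 75 (82.7%), against 44.4% of other CD8 cells. With at least 5 Trbv UMIs per cell it led in 48 of 57 (84.2%, exact 95% interval 72.1 to 92.5) against 186 of 411 (45.3%, 40.4 to 50.2). The effective number of V genes, which is 1 where a single gene holds all cells, was 1.45 in the dividing and 4.48 in the other CD8 cells. Where Trbv19 led, the alpha chain gene Trav3-1 led in 41 of 54 dividing cells (75.9%, 62.4 to 86.5) and in 112 of 209 other CD8 cells (53.6%, 46.6 to 60.5). Trav12-2 came next, in 7 and 53 cells.

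Read the other way, 62 of 415 CD8 cells led by Trbv19 in library 1 were members (14.9%, 11.7 to 18.7), against 13 of 425 led by another V gene (3.06%, 1.64 to 5.17). After thinning the shares were 19 of 363 (5.23%, 3.18 to 8.05) and 4 of 384 (1.04%, 0.285 to 2.65). The intervals did not overlap at either depth. In library 2 the shares were 4 of 74 (5.41%) and 47 of 669 (7.03%), and after thinning 2 of 74 (2.70%, 0.329 to 9.42) and 9 of 664 (1.36%, 0.622 to 2.56), so the order turned with depth and the intervals overlapped. In library 3 they were 0 of 20 and 4 of 195, and after thinning 0 of 13 and 1 of 179. Library 1 is 1 mouse, so its cells are not replicates, no test across mice was possible, and cells with 1 V gene need not be 1 clone.

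Receptor use was more even in the other dividing cells. In library 2 the leading gene of dividing CD8 cells was Trbv5 (27.5% of cells), with an effective number of 7.58 against 13.5 in other CD8 cells. Dividing conventional CD4 cells there were led by Trbv1 (24.2%, effective number 6.85 against 10.8) and dividing Foxp3 cells also by Trbv1 (20.5%, 7.35 against 13.7). The dividing groups hold fewer cells than the groups beside them, and the effective number was not corrected for that. V genes are close copies of each other, so counts that the aligner could split between them are uncertain.

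Gene expression outside the gate was compared between dividing and other T cells within the CD8, conventional CD4 and Foxp3 classes, as the mean of the 3 classes, so that class makeup did not enter. UMIs were summed per library, class and state where at least 10 cells were present, which gave dividing sums from libraries 1 and 2 only (17 to 81 cells each) and other sums from all 3. With edgeR's quasi-likelihood test, library as a block, 2174 of 8686 genes tested (25.0%) had an adjusted P under 0.05, 1189 higher in dividing cells (13.7%) and 985 lower (11.3%). The 8686 genes include 159 of the cell cycle lists, whose difference follows from the gate. Outside these lists 1035 were higher and 985 lower, and cycle genes missing from the lists, such as Cep55, are still among the 1035. Genes of the entry, quiescence and nucleotide lists below bear on the cycle too. Their differences may also follow from the gate, so their P values are no separate support. The median log2 difference over all genes was -0.07. Where values are said below not to overlap, this describes the named genes only, as the share over all genes is not given. The 3 class sums of a library entered separately, so these P values do not measure the spread of the division effect between mice. Log2 differences below are dividing minus other with their standard error, and CPM values are sums over all members and all other T cells of libraries 1, 2 and 3 in order. Fewer UMIs remained where each cell was thinned to 1100 (519 genes called) or cells of over 3000 genes were left out (624), and without library 2 dividing sums came from library 1 alone (586), so list counts under these 3 alternatives are given where they moved by more than 1.5 times.

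Genes that hold T cells at rest and let them recirculate were lower in dividing cells. Of 14 progenitor and recirculation genes 9 were lower and 0 higher (median -0.97), and the count was 6 to 10 under every alternative run. Il7r, the interleukin 7 receptor alpha chain (chr15:9505788-9530176, minus strand), was at 98.5, 53.0 and 44.7 CPM in members and at 313, 296 and 419.9 CPM in other T cells. Each member value lay below each other value. Its difference was -2.27 ± 0.17 (adjusted P = 1.4e-08), and by class it was -3.11 in CD8, -2.03 in conventional CD4 and -1.66 in Foxp3 cells. In B cells it was at 5.68, 1.80 and 6.44 CPM.

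S1pr1, the receptor that takes T cells out of tissue along sphingosine 1-phosphate, was at 66.0, 25.5 and 44.7 CPM in members and 158, 124 and 162 CPM in other T cells (-1.51 ± 0.22, adjusted P = 4.9e-05). Klf2, the factor that drives S1pr1, was at 239.6, 132 and 71.5 CPM against 466, 351 and 444 CPM (-1.18 ± 0.16, adjusted P = 2.2e-05). Members were lower in every library for both. The survival gene Bcl2 was at 44.4, 17.9 and 8.94 CPM against 102, 64.1 and 70.2 CPM (-1.93 ± 0.35, adjusted P = 0.00049).

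Genes of the quiescence list were called in both directions. Of 17 tested genes 8 were lower and 4 higher (median -0.44). Lower were Klf3 (-1.51 ± 0.25), the antiproliferative genes Btg1 (-1.13 ± 0.13) and Btg2 (-0.79 ± 0.13), Slfn2 (-0.86 ± 0.11) and the p27 gene Cdkn1b (-0.70 ± 0.15, adjusted P = 0.0025), which was at 111, 76.2 and 98.3 CPM in members against 155, 136 and 147 CPM. Higher were the INK4 inhibitor genes Cdkn2c (1.65 ± 0.15, adjusted P = 1.8e-07), Cdkn2a (1.08 ± 0.30, adjusted P = 0.012) and Cdkn2d (0.47 ± 0.15, adjusted P = 0.033) and the retinoblastoma gene Rb1 (0.63 ± 0.18, adjusted P = 0.013). Cdkn2c was at 62.0, 67.5 and 71.5 CPM in members and 24.1, 24.3 and 16.7 CPM in other T cells. Cdkn1a, the p21 gene, was at 0.03 and was not called. Without library 2 the counts were 5 lower and 1 higher, Cdkn1b was at -0.49, Cdkn2a at 1.28, Rb1 at 0.30 and Cdkn2d at -0.06, none of these 4 called. After thinning 6 of 16 were lower and 0 higher, with Rb1 at -0.41, and without cells of over 3000 genes 5 were lower and 2 higher.

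Cyclin D and entry genes split too, and as genes of the cycle they may follow from the gate. Among 9 tested, 5 were higher and 2 lower (median 0.57). Cdk2 was at 1.46 ± 0.28, E2f2 at 1.31 ± 0.21, E2f3 at 0.97 ± 0.27 and Cdk4, the cyclin D kinase, at 0.92 ± 0.14. Both lower genes were D cyclins: Ccnd2 (-0.47 ± 0.12, adjusted P = 0.0081) was at 147, 111 and 35.7 CPM against 245, 148 and 90.7 CPM, and Ccnd3 was at -0.39 ± 0.10. The higher calls rested on library 2: without it none was higher and 1 was lower, with Cdk2 at 0.82, E2f2 at 1.15, Cdk4 at 0.35, Ccnd3 at -0.42 and E2f3 at -1.49. After thinning 0 of 4 were higher and 2 lower, and without cells of over 3000 genes 0 of 7 were higher and 2 lower. Ccnd2 was at -0.35 and not called without library 1.

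Genes that build nucleotides were higher, which may follow from the gate, since S phase copies DNA. Of 19 tested 17 were higher and 0 lower (median 1.03). Dctpp1, which clears non-canonical deoxynucleotides, was at 67.2, 157 and 134 CPM against 34.1, 42.8 and 31.4 CPM (1.58 ± 0.16, adjusted P = 7.9e-07). Impdh2, the entry enzyme of guanine nucleotide synthesis, was at 146, 218 and 304 CPM against 84.7, 89.5 and 159 CPM (1.20 ± 0.14, adjusted P = 4.1e-06). Members were higher in every library for both. Shmt1, of folate one-carbon metabolism, was at 13.1, 18.7 and 8.94 CPM against 4.16, 2.92 and 6.13 CPM (2.58 ± 0.52, adjusted P = 0.0013). The count was 3 without library 2, where Shmt1 was at 0.14, and 3 of 14 without cells of over 3000 genes (median 0.40). After thinning it was 1 of 8 (median 0.33).

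Ribosome biogenesis and glycolysis genes were higher in part. For ribosome biogenesis 11 of 16 were higher and 0 lower (median 0.60), such as Pa2g4 at 212, 294 and 214 CPM against 129, 97.1 and 91.5 CPM (1.24 ± 0.20, adjusted P = 0.00016). These calls rested on library 2 and on the largest cells: the count was 0 without library 2 (median 0.19, Pa2g4 0.46) and 0 without cells of over 3000 genes (median 0.09), and it was 1 after thinning and 7 without cells holding foreign UMIs. For glycolysis 7 of 16 were higher and 1 lower (median 0.32). Tpi1 was at 251, 278 and 429 CPM against 158, 105 and 99.7 CPM (1.12 ± 0.15, adjusted P = 1.6e-05), and the kinase gene Pgk1 was at 0.82 ± 0.12. The lower one, the glucose transporter gene Slc2a3, was at 21.6, 10.3 and 8.94 CPM against 33.2, 20.6 and 14.3 CPM (-1.14 ± 0.32, adjusted P = 0.014), and at -0.46 and not called without library 2. The higher count was 4 without library 2, 2 after thinning and 1 without cells of over 3000 genes.

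Cytosolic ribosomal protein genes did not move together. Of 80 tested 18 were higher and 7 lower (median -0.00), and they took 22.2%, 24.9% and 25.7% of members' UMIs against 22.3%, 26.0% and 29.4% of those of other T cells. The split turned with the setting: 0 higher and 4 lower without library 2, 26 and 3 without library 1, 0 and 30 after thinning, and 2 and 20 with sums of at least 2 cells.

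**Figure D4:**
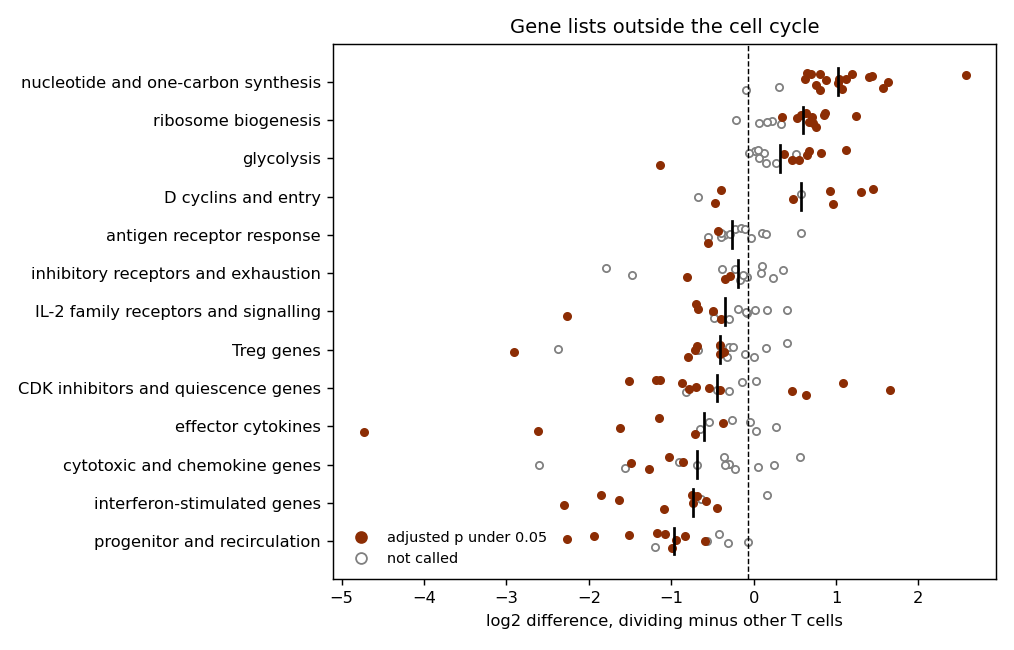
Log2 difference (dividing minus other T cells, mean of 3 classes; x axis) of each tested gene by list, filled where the adjusted P was under 0.05, with the list median as a bar and the median of all genes (-0.07) as a dashed line. Nucleotide synthesis genes lie to the right (median 1.03) and progenitor and recirculation genes to the left (median -0.97).

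Cytokine genes tended lower in dividing cells. Of 12 tested effector cytokine genes 6 were lower and 0 higher (median -0.60). Ifng was at 129, 116 and 53.6 CPM against 134, 175 and 139 CPM (-0.37 ± 0.12, adjusted P = 0.029), a small difference, which was -0.37 without library 1 and -0.53 without library 2 and called in neither. Cd40lg, the helper signal to B cells, was at 29.0, 22.9 and 17.9 CPM against 78.8, 76.8 and 81.7 CPM (-1.62 ± 0.39, adjusted P = 0.0056, and -1.07 and not called without library 1). Ltb was at -0.71 ± 0.11. Il21, the helper cytokine, was at 19.4, 13.7 and 0 CPM against 18.7, 32.9 and 12.3 CPM and was not called (-0.65 ± 0.49, adjusted P = 0.36). Il21 fell past the threshold without library 1 (-2.35) and was at 0.21 without library 2.

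The largest cytokine differences rest on few UMIs. Il17a had 24, 32 and 0 UMIs in all members (13.7, 12.2 and 0 CPM against 81.7, 92.5 and 4.90 CPM), and only 4 of these lay in the 3 classes compared, so that its fitted difference depends on those 4 (-4.73 ± 0.99, adjusted P = 0.0026). Il2 had 8, 3 and 0 UMIs in members and 155, 167 and 27 in other T cells (-2.62 ± 0.76, adjusted P = 0.018), and was not called without library 1 (-2.59) or library 2 (-3.66). The list had 3 lower without library 2, 1 of 8 after thinning, and 1 without cells of over 3000 genes (median -0.07).

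Cytotoxic and chemokine genes were lower only in part. Of 15 tested 4 were lower and 0 higher (median -0.68). Ccl5, a chemokine stored by effector T cells, was at 6269, 4379 and 5684 CPM against 7884, 12367 and 13435 CPM (-1.49 ± 0.17, adjusted P = 2.7e-06), and B cells were at 195, 339 and 142 CPM. Fasl, the death receptor ligand, was at 141, 51.1 and 89.4 CPM against 181, 111 and 131 CPM (-1.27 ± 0.28, adjusted P = 0.0024). Ccl4 was at -1.03 ± 0.30 and Ccl3 at -0.86 ± 0.21, the latter also at -0.86 but not called without library 2. Gzmk was at 508, 211 and 268 CPM against 319, 193 and 249 CPM (0.56 ± 0.20), and its adjusted P of 0.05 just missed the threshold. Without library 1 Gzmk passed it (0.63), and the list had 10 lower and 1 higher (median -1.31). With 4 or more gate UMIs the list had 11 lower (median -1.68).

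Inhibitory receptors changed little. Of 14 tested 3 were lower (median -0.19): Lag3 (-0.34), Tigit (-0.29) and Cd200r1 (-0.81). Tigit was at 513, 284 and 483 CPM against 571, 382 and 577 CPM. Without library 2 none of the 3 was called (Lag3 -0.10, Tigit -0.09, Cd200r1 -1.10) and another gene of the list was called higher, and 0 were called by DESeq2, after thinning and without cells of over 3000 genes. Pdcd1, the PD-1 gene, was at 596, 264 and 331 CPM against 489, 269.7 and 334 CPM (-0.16 ± 0.13, adjusted P = 0.38).

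Interferon-induced genes were lower in dividing cells. Of 11 tested 9 were lower and 0 higher (median -0.73). Ifit1 was at 27.9, 9.91 and 0 CPM against 48.6, 32.8 and 35.5 CPM (-2.30 ± 0.46, adjusted P = 0.0012), and Ifit3 was at 26.2, 12.2 and 0 against 49.5, 34.9 and 46.6 CPM (-1.85 ± 0.38, adjusted P = 0.0017). Members were lower in every library for both. The count was 4 without library 2, 2 of 7 after thinning and 2 of 9 without cells of over 3000 genes.

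The IL-2 family receptor and signaling list had 5 of 14 lower and 0 higher (median -0.34). Stat5b, which carries IL-2 and IL-7 signals, was at 50.1, 35.5 and 8.94 CPM against 67.7, 55.9 and 77.2 CPM (-0.68 ± 0.14, adjusted P = 0.0012), and the feedback inhibitor gene Socs3 was at -0.70 ± 0.14. Il2ra, the high-affinity IL-2 receptor chain, was not called (0.41 ± 0.21, adjusted P = 0.17). The count was 3 without library 2, 3 after thinning and 2 without cells of over 3000 genes.

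Of 17 regulatory T cell genes 7 were lower (median -0.40), with 4 lower without library 2, 1 higher and 2 lower after thinning, and 1 lower without cells of over 3000 genes. Among 13 lineage transcription factors 4 were lower (median -0.47), with 0 without library 2, 2 without library 1, 0 after thinning and 1 without cells of over 3000 genes. For tissue homing and residence 1 of 19 was higher and 7 lower (median -0.20). There the counts were 1 and 12 without library 1, 1 and 0 without library 2, 1 and 2 after thinning and 0 and 2 without cells of over 3000 genes. Cxcr6, which holds T cells in tissue, was at 558, 172 and 143 CPM against 546, 293 and 155 CPM (-0.80 ± 0.18, adjusted P = 0.0037), and at -0.56 and not called without library 2. In the antigen receptor response list 2 of 14 were lower (median -0.26), and that count ran from 0 to 7 over the alternatives.

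The largest differences outside the cell cycle lists were again in genes of the cycle. Like the listed genes they describe what the gate selected, so they are given with no P value. Cep55, which acts in the final abscission of daughter cells, was at 68.3, 84.6 and 107 CPM in members and 3.26, 3.0 and 4.90 CPM in other T cells (4.63 ± 0.27). Cenpm, a kinetochore gene, was at 34.7, 70.9 and 89.4 CPM against 2.71, 3.72 and 3.27 CPM (3.68 ± 0.24). Tcf19 was at 2.98 ± 0.20 and the importin gene Kpna2 at 2.76 ± 0.26. For all 4 the member values and the other T cell values did not overlap. Gm20628 was at 11.4, 101 and 107 CPM against 0.995, 2.85 and 4.08 CPM (5.01 ± 0.34), and at 1.60 without library 2. It is an antisense gene (chr3:96267075-96270289, minus strand) lying over the histone genes Hist2h3b and Hist2h2bb on the other strand, so reads may be shared and its value is uncertain.

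The most strongly lower genes by the same rule were Il7r, Tcp11l2, Spp1 and V genes. Tcp11l2 was at 30.7, 11.8 and 26.8 CPM against 77.8, 72.2 and 157 CPM (-1.96 ± 0.19, adjusted P = 4.8e-07). Spp1 (osteopontin, abundant in macrophages) was at 30.2, 28.6 and 0 CPM against 59.7, 70.5 and 24.1 CPM (-2.86 ± 0.86, adjusted P = 0.021). Trbv13-3 was at -2.96 ± 0.43 and Trav9-1 at -2.34 ± 0.30, both subject to sharing of reads between V genes. Lgals1, galectin 1, was higher, at 1552, 3578 and 3173 CPM against 852, 1896 and 1576 CPM (0.75 ± 0.12, adjusted P = 9.6e-05).

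Transcripts of other cell types were present in both groups. Macrophage markers (10 genes) took 0.0471%, 0.0654% and 0.00626% of members' UMIs against 0.109%, 0.107% and 0.0434% in other T cells, and 3 of 7 tested were lower in dividing cells. Lyz2 was at 99.0, 179 and 0 CPM in members and 421, 305 and 139 CPM in other T cells. Dendritic cell markers took 0.423%, 0.806% and 0.0134% against 0.653%, 0.703% and 0.138%, with 2 of 10 lower. NK cell markers took 0.0780%, 0.0666% and 0.0411% against 0.136%, 0.109% and 0.0937%, with 1 of 6 lower. B cell markers took 0.0180%, 0.0188% and 0.00447% against 0.0326%, 0.0146% and 0.0122%, plasma cell markers 0.0121%, 0.0173% and 0.0116% against 0.0163%, 0.0108% and 0.0112%, and Schwann and stromal markers 0.00490%, 0.00313% and 0.00626% against 0.00620%, 0.00733% and 0.00531%, each with 1 tested gene lower. Gamma delta receptor genes took 0.00968%, 0.00854% and 0.00268% against 0.0151%, 0.0205% and 0.00833%, with 0 of 4 called. Pax5 had no UMI in any member, and Ms4a1 had 1 UMI. The part of these transcripts in the comparison was not tested beyond the alternative without foreign UMIs, in which 55 of the 61 named genes called here stayed called in the same direction.

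Dividing CD8 and dividing conventional CD4 cells were then compared with each other, in the same fit and without the class genes. Of 8686 genes 243 were called (2.80%), 74 higher in CD8 cells (0.852%) and 169 lower (1.95%), and the median over all genes was 0.01. Values are CPM in dividing cells of libraries 1 and 2, CD8 first, and the log2 difference among other T cells follows for part of the genes. Where it is not given, the values do not show whether a difference is particular to dividing cells. Every cell in these sums was chosen by Mki67 and Top2a, so the gate does not set this contrast.

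Dividing CD8 cells carried the cytotoxic program. Of 15 cytotoxic and chemokine genes 9 were higher and 0 lower (median 2.27), and 14 were higher without library 1 (median 2.85). Ccl5 was at 9087 and 8119.7 CPM against 573 and 869.5 CPM (3.65 ± 0.31, adjusted P = 1.7e-06, and 3.44 among other T cells). Gzmk was at 748 and 449 CPM against 183 and 92.7 CPM (2.17 ± 0.35, adjusted P = 0.0015, other T cells 2.39). Nkg7, a cytotoxic granule protein gene, was at 2698 and 2319.5 CPM against 706 and 380.1 CPM (2.28 ± 0.25, adjusted P = 3.6e-05, other T cells 2.30). Gzma was at 269.7 and 193 CPM against 19.7 and 4.75 CPM (4.51 ± 0.94, adjusted P = 0.014, other T cells 2.82). CD8 values lay above CD4 values in both libraries for all 4.

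NK-type receptors and gamma chain genes led the dividing CD8 cells. Klrc1, the inhibitory NKG2A gene, was at 846 and 379.97 CPM against 29.6 and 0 CPM (5.81 ± 0.47, adjusted P = 7.7e-07, other T cells 4.82). Klrc2 had 103 UMIs against 1, a ratio of 40.7 with an exact interval of 7.14 to 1622. Klrc1 and Klrc2 are close copies, so their split is uncertain. Eomes, a factor of effector and memory CD8 cells, was at 176 and 78.1 CPM against 4.94 and 7.13 CPM (4.09 ± 0.61, adjusted P = 0.00093, other T cells 3.47). Tcrg-V1 had 226 UMIs against 0, at least 29.8-fold higher against a floor of 3 counts over the group, and Tcrg-C2 had 84 against 0, at least 11.1-fold higher. Trgv2 was at 412 and 381 CPM against 19.7 and 4.75 CPM (5.31 ± 0.38, adjusted P = 1.9e-07, other T cells 3.22). A UMI of a gamma chain constant gene was found in 26 of 81, 37 of 62 and 0 of 5 dividing CD8 cells. Among other CD8 cells, which were shallower, it was found in 147 of 765, 220 of 837 and 24 of 241. Trdc was found in 3, 6 and 0 of these dividing and in 37, 81 and 4 of these other CD8 cells.

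Pdcd1, the PD-1 gene, was higher in dividing CD8 cells, at 864 and 534 CPM against 336 and 135 CPM (1.69 ± 0.22, adjusted P = 0.00024, other T cells 1.19). Cxcr6, which holds T cells in tissue, was at 795 and 319 CPM against 267 and 30.9 CPM (2.19 ± 0.33, adjusted P = 0.00077, other T cells 1.35). It was 1 of 2 higher genes among the 19 tested for tissue homing and residence, where 3 were lower (median 0.12). Those counts were 6 and 2 without library 1, 2 and 6 without library 2, and 0 and 1 both after thinning and without cells of over 3000 genes. Among inhibitory receptor and exhaustion genes 3 of 14 were higher and 2 lower (median 1.12), and Ctla4 was one of the lower, at 569 and 406 CPM against 1160.0 and 846 CPM (-1.02 ± 0.17, adjusted P = 0.0021).

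Dividing conventional CD4 cells carried the helper genes, though regulatory T cells without a captured Foxp3 UMI can be among them. Of 12 effector cytokine genes 6 were lower in CD8 cells and 0 higher (median -2.90, also without the 2 genes that had at most 3 UMIs in both groups). Without library 2 4 were lower and the median was -1.14. Cd40lg had 1 UMI in dividing CD8 cells and 72 in dividing CD4 cells, a ratio of 182 in favor of CD4 cells with an exact interval of 31.7 to 7298. Tnfsf8, the CD30 ligand gene, was at 6.07 and 3.97 CPM against 163 and 112 CPM (-4.79 ± 0.54, adjusted P = 5.2e-05, other T cells -4.17). Tnfrsf4, the costimulatory receptor OX40, was at 77.8 and 49.0 CPM against 760.2 and 625 CPM (-3.48 ± 0.22, adjusted P = 4.7e-08, other T cells -3.56). Il10 was at 27.9 and 3.97 CPM against 138 and 147 CPM (-3.30 ± 0.48, adjusted P = 0.00055, other T cells -3.68). Il21 was at 6.07 and 2.65 CPM against 34.6 and 61.8 CPM (-3.47 ± 0.67, adjusted P = 0.0071, other T cells -3.93), and at -2.38 and not called without library 2. Angptl2 had 1 UMI against 33 (ratio 83.5 toward CD4 cells, 14.0 to 3398).

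Recirculation genes were lower in dividing CD8 than in dividing CD4 cells. Of 14 progenitor and recirculation genes 7 were lower and 0 higher (median -1.88), and without library 1 1 was higher and 5 lower. The count was 2 with 4 or more gate UMIs, 2 after thinning and 4 without cells of over 3000 genes. S1pr1 was at 19.4 and 6.62 CPM against 237 and 35.6 CPM (-3.10 ± 0.49, adjusted P = 0.0012), where the difference among other T cells was -1.34. Il7r was at 15.8 and 31.8 CPM against 163 and 64.1 CPM (-2.10 ± 0.37, adjusted P = 0.0035, other T cells -1.03), and at -1.03 and not called without library 1. Of 17 regulatory T cell genes 9 were lower (median -1.44), among them Nrp1 (-2.73 ± 0.38) and Itgb8 (-4.26 ± 0.70, and -3.93 and not called without library 1). After thinning 4 were lower, and 4 without cells of over 3000 genes. The part of regulatory T cells without a captured Foxp3 UMI in these values was not tested.

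Among the named V genes 1 beta and 1 alpha chain gene leaned to CD4 cells. Trbv14 had 2 UMIs in dividing CD8 and 39 in dividing CD4 cells, a ratio of 49.4 (12.8 to 422), with the same direction in both libraries, and was not called without library 2 (-7.57). Trav4-3 had 2 and 25, a ratio of 31.6 (7.89 to 276), nearly all from library 1, where it was at 2.43 against 118 CPM, compared with 0 against 2.38 CPM in library 2. It was not called without library 1 (-4.61) or library 3 (-5.16), and with 4 or more gate UMIs it was at 2.29.

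Cell cycle genes did not separate the dividing classes in this fit: of 53 S phase, 84 G2/M and 22 histone genes tested, 0 were called between CD8 and conventional CD4 cells. Without library 2, where the dividing sums are from library 1 alone, 11, 11 and 1 were called higher in CD8 cells, and without library 1 1 G2/M gene was. Of 7 macrophage markers tested 2 were lower in dividing CD8 cells (median -1.42), with 6 of 7 lower without library 2, 4 of 6 without cells of over 3000 genes, 0 of 7 without library 1, 0 of 5 without cells holding foreign UMIs and 0 of 4 after thinning, and their part in the other calls was not tested.

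**Figure D5:**
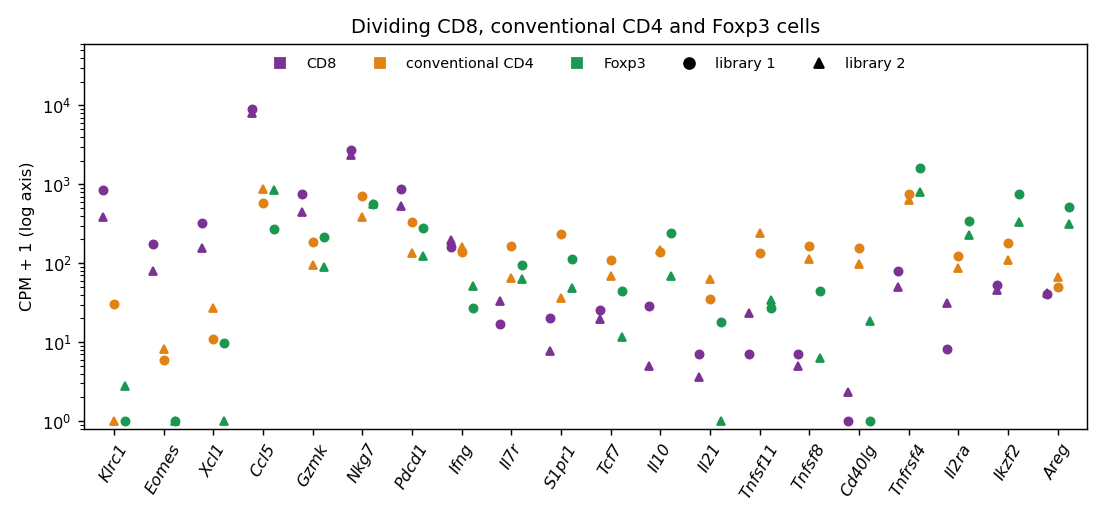
CPM + 1 on a log axis for named genes in dividing CD8, conventional CD4 and Foxp3 cells of library 1 (circles) and library 2 (triangles); points at 1 mean no UMI. Ccl5 separates CD8 cells from both other classes, Tnfsf8 conventional CD4 cells and Areg Foxp3 cells.

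Dividing Foxp3 and dividing conventional CD4 cells differed in fewer genes. Of 8686 tested 25 were called (0.288%), 11 higher in Foxp3 cells (0.127%) and 14 lower (0.161%), with a median over all genes of -0.00. These calls are few and move with the setting: 112 without library 1, 76 by DESeq2, 109 with 4 or more gate UMIs, 7 without cells of over 3000 genes and 0 after thinning. Dividing Foxp3 cells numbered 17 in library 1 and 41 in library 2.

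Regulatory genes led the higher side. Areg, the epidermal growth factor receptor ligand of tissue regulatory T cells, was at 509 and 309.6 CPM in dividing Foxp3 cells against 49.4 and 66.5 CPM in dividing CD4 cells (2.58 ± 0.28, adjusted P = 0.00018, other T cells 1.75). Ikzf2, the factor Helios, was at 742 and 334 CPM against 178 and 109 CPM (1.75 ± 0.25, adjusted P = 0.0025, other T cells 1.64). Foxp3 values lay above CD4 values in both libraries for both genes. Of 17 regulatory T cell genes 2 were higher and 0 lower (median 0.86, and 0.93 with genes at 0 UMIs set at their bound), and 6 were higher without library 1, 5 by DESeq2 and 0 after thinning and without cells of over 3000 genes. Il2ra was at 345 and 229 CPM against 123 and 85.5 CPM and was not called (1.35 ± 0.35, adjusted P = 0.16), though it was without library 1, also at 1.35. Fam129a (2.11 ± 0.32) and Arl5a (1.98 ± 0.32) were higher too, Fam129a at 1.62 and not called without library 2. Ighm, the immunoglobulin mu heavy chain gene, was at 276 and 219.9 CPM against 69.1 and 33.3 CPM (2.37 ± 0.32, adjusted P = 0.0021, other T cells 1.45) and at 1.89 and not called without library 2. Ighm is 1 of the 2 B cell genes tested and the 1 called, with 0 of the 2 called after thinning. The 2 B cell genes tested had a median of 1.79. Cd79a was absent by the gate itself, Pax5 had no UMI in members, and the source of the Ighm UMIs was not tested.

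Helper genes led the lower side. Of 12 effector cytokine genes 3 were lower and 0 higher (median -1.31, or -1.97 without the 2 genes at or under 3 UMIs in both groups), with 6 without library 1 and 1 without library 2. Ifng was at 25.9 and 51.0 CPM against 138 and 162 CPM (-1.86 ± 0.27, adjusted P = 0.0025, other T cells -2.54), Tnfsf8 at 43.2 and 5.28 CPM against 163 and 112 CPM (-3.31 ± 0.58, adjusted P = 0.013) and Cd40lg at 0 and 17.6 CPM against 153 and 97.4 CPM (-2.97 ± 0.50, adjusted P = 0.011). Foxp3 values were the lower in both libraries for all 3. Casp1 (-2.35 ± 0.48), Lrch1 (-2.61 ± 0.51) and the memory factor gene Tcf7 (-2.31 ± 0.40) were lower too. Without library 2 Ifng (-2.52), Tnfsf8 (-2.02), Casp1 (-1.88), Lrch1 (-2.10) and Tcf7 (-1.44) were not called. 1700019D03Rik had 1 UMI against 38, a ratio of 41.7 toward CD4 cells (7.05 to 1690), also not called without library 2 (-8.83).

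The difference of the division effect between classes was tested directly and called no gene. Between CD8 and conventional CD4 cells 0 of 8686 genes were called by edgeR (503 at an unadjusted P under 0.05, smallest adjusted P 0.068) and 0 by DESeq2 (352 unadjusted). Between Foxp3 and conventional CD4 cells 0 were called by edgeR (451 unadjusted, smallest adjusted P 0.55) and 0 by DESeq2 (324 unadjusted). Il7r was lower by more in CD8 cells, by -1.08 ± 0.41, but was not called by edgeR after adjustment over the 8686 genes (adjusted P = 0.82). The CD8 count was 110 without library 2 and 12 without library 1, and the Foxp3 count was 29 without library 2 and 6 without library 1, with 1 dividing library left in each.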

How the data were processed

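Members, lists and tests were chosen with earlier results of these data known. The authors sorted CD45+ cells, made 10x Genomics 5′ libraries with T cell receptor enrichment (not used here) and deposited UMI counts, not normalized, for each gene in each cell, from Cell Ranger (5.0.1 for library 1 and 6.1.2 for libraries 2 and 3, per the file headers) on mm10. The count tables held 32285 gene rows. Library 1 came without a gene list, and its rows were read in the order of the other 2 libraries. The gene names of library 1 thus rest on that order. Gene totals then correlated at Spearman rho 0.9501 and 0.9287, against 0.3619 and 0.3211 with rows shifted by 1. Cells of more than 5000 genes or 20% mitochondrial UMIs were left out, which kept 3848, 8256 and 1533 of the barcodes (total UMIs 22983991, 55120460 and 3399733). Every barcode had at least 501 UMIs. Doublets were treated only through the alternatives without foreign UMIs or without cells of over 3000 genes.

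UMIs were summed per library, class and state (at least 10 cells) and tested with edgeR 4.0.16 (R 4.3.3): TMM scaling, filterByExpr, glmQLFit and glmQLFTest, a term for library, and P values adjusted by Benjamini-Hochberg over 8686 genes. Libraries are separate mice or pools, but dividing sums came from libraries 1 and 2 only, 1 mouse each. The fit had 15 sums and 7 residual degrees of freedom. The 3 class sums of a library thus counted separately toward the division effect. The library term does not take up differences between mice in that effect. Gate and class genes were removed before the test. States and classes of 1 library share its mouse, so the library pairs the sums. DESeq2 1.42.0 was an alternative. On simulated data the dividing against other comparison recovered 28% of genes changed 2-fold and 97% of genes changed 4-fold among 8312 genes. The 200 changed genes were picked among those with higher counts. Each sum was drawn independently with the same dispersion for all genes. Recovery with sums that share a mouse, or for genes of low counts, was therefore not measured. Shares were compared by an exact permutation of classes within libraries (2-sided) at 1100 UMIs per cell. Genes were named where they led their list, or were among the 5 largest called differences in each direction with at least 50 CPM in the higher group, the same direction in every library and outside the cell cycle lists. A few genes of the lists are not reported here. Those in the text chosen after their values were seen are Lgals1, Cxcr6, Tcf7, Il21 and the genes given as not called. Gene positions are from GENCODE vM21 on GRCm38 and promoter windows from RefSeq. Python 3.11.15, numpy 2.4.6, pandas 2.3.3 and scipy 1.17.1 were used. Alternatives are in the closing section, and sums of at least 2 cells and members pooled over classes were chosen after seeing the data.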

Additional observations from a re-analysis of the deposited data

How the results depend on the processing

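The count of genes called between dividing and other T cells (2174) was 956 without the library block, 519 after thinning, 624 without cells of over 3000 genes and 586 to 2296 when 1 library was left out (lowest without library 2). Between dividing CD8 and conventional CD4 cells (243) it was 461 with no filter on low counts, 34 without the block, 159 without foreign UMIs, 36 after thinning, 104 without cells of over 3000 genes and 195 to 360 when 1 library was left out. Between dividing Foxp3 and conventional CD4 cells (25) it was 76 with DESeq2, 147 with no filter, 0 without the block, 109 with 4 or more gate UMIs, 0 after thinning, 7 without cells of over 3000 genes and 19 to 112 when 1 library was left out. The interaction for CD8 cells (0) gave 76 with no filter, 21 with 4 or more gate UMIs, 1 without foreign UMIs, 1 after thinning, 2 with sums of at least 2 cells and 0 to 110 when 1 library was left out. That for Foxp3 cells (0) gave 44, 12, 1 without cells of over 3000 genes, 2 with sums of at least 2 cells and 0 to 29. Leaving out library 1 or 2 leaves each dividing class with 1 library, whose lone sum is assumed to vary like the others. Thinning leaves fewer UMIs and fewer genes by construction, and for the other changes the cause was not tested. Without the replicate block (library) list counts were lower as well, such as 11 of 19 nucleotide genes, 4 of 16 ribosome biogenesis genes, 2 of 11 interferon-induced genes and 0 of 13 lineage factors. A block of library by class could not be fitted between dividing classes.

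The members' share of T cells (4.23%) was 11.5% with a gate of 1 UMI and 1.26% with gates on thinned cells. Conventional CD4 cells (20.4% of members) were 12.6% with 4 or more gate UMIs and 11.5% with gates on thinned cells, and Foxp3 cells (13.3%) were 3.33% in the latter. The S-rich share (13.2%) was 5.33% without thinning. The CD8 minus conventional CD4 difference in dividing share (1.09 percentage points) was 3.04 with a cut of 1 UMI, 0.54 at 2000 UMIs, 0.706 with classes from unthinned counts, 1.52 without thinning and 0.732 to 1.74 when 1 library was left out (highest without library 2).

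Of 61 named genes called between dividing and other T cells, 54 stayed called in the same direction with DESeq2, 40 without the block, 55, 33 and 59 without libraries 1, 2 and 3, 27 of 48 after thinning and 27 of 57 without cells of over 3000 genes. Of 35 named between CD8 and conventional CD4 cells, 33 stayed with DESeq2, 14 without the block, 28 to 31 when 1 library was left out, 14 of 32 after thinning and 23 without cells of over 3000 genes. Of 14 named between Foxp3 and conventional CD4 cells, 14, 5 and 14 stayed without libraries 1, 2 and 3, 7 with 4 or more gate UMIs, 2 without cells of over 3000 genes and 0 after thinning or without the block. Sign changes were Trav4-3 (2.29 with 4 or more gate UMIs, CD8 against CD4 cells), and between dividing and other T cells Dkc1 (-0.78), Ccl3 (0.093), Lag3 (0.033) and Rb1 (-0.41) after thinning, Ifng (0.19), Lag3 (0.15) and Il21 (0.27) without cells of over 3000 genes, Pdcd1 (0.14) with members pooled over classes, and, over the 3 fits that leave out 1 library, E2f3 (-1.49 to 1.23), Il21 (-2.35 to 0.21) and Cdkn2d (-0.058 to 0.63), the ends at the other sign being those without library 2.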

Other observations

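Cells that passed the Mki67 and Top2a cut but not the T cell gate were not members. In all, 220, 378 and 24 cells of libraries 1, 2 and 3 held at least 2 UMIs over both genes. Of these, 12, 76 and 2 had no Cd3 UMI, 25, 14 and 0 had Cd3 with Cd79a, and 4, 95 and 0 had Cd3 with more than 1 C1q UMI. Library 2 thus lost 95 cells to the C1q limit, and 38 of its 193 members held exactly 1 C1q UMI, against 2 of 179 in library 1 and 0 of 22 in library 3.

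Some B cells and macrophages also passed the cut. B cells inside the cut, by at least 2 Cd79a UMIs and no Cd3 UMI, were 5 of 222, 24 of 360 and 0 of 70, and macrophages, by at least 5 C1q UMIs, were 0 of 6, 26 of 1812 and 0 of 4, numbers too small in libraries 1 and 3 to compare with library 2.

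Hist1h2ap, a replication histone gene, stood at 2422 CPM in library 3 members against 246 and 226 CPM in libraries 1 and 2, and at 56.0, 7.9 and 2.1 CPM in other T cells of libraries 3, 1 and 2. Library 3 members numbered 22, and histone genes are close copies that can share reads.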
